A study of Homo sapiens with 14 samples.

Results

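The transcripts described here are those of 2 cytoplasmic actins (ACTB and ACTG1), 2 alpha-tubulins (TUBA1B and TUBA1A), 2 beta-tubulins (TUBB and TUBB4B) and vimentin (VIM). A site belonged to them when its position lay inside one of 7 fixed hg19 gene spans, whatever its editing level. The spans held 82 of the 26172 distinct sites listed in all libraries together. They lie at chr7:5566779-5570232 (ACTB), chr17:79476997-79479892 (ACTG1), chr12:49521566-49525304 (TUBA1B), chr12:49578578-49583107 (TUBA1A), chr6:30687978-30693203 (TUBB), chr9:140135665-140138159 (TUBB4B) and chr10:17270258-17279592 (VIM).

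Actins polymerise into the microfilaments that shape the cell cortex and carry myosin motors. Alpha- and beta-tubulin form the paired unit of microtubules, the tracks of the mitotic spindle and of vesicle transport. Vimentin is the main intermediate filament protein of mesenchymal cells and of many cultured lines. All 3 systems rest on messenger RNAs that are abundant in cultured cells. An adenosine deaminase converts adenosine to inosine, which sequencing reads as guanosine, so an edited adenosine appears as an A-to-G difference from the genome.

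The data were lists of A-to-G sites in polyadenylated RNA from HEK293T, an established human embryonic kidney cell line that takes up plasmids readily. Each of the 14 libraries carried an editor, and the libraries formed 7 groups of 2. The guides were NT and EZH2_A22 for REPAIRv2 and REPAIR.t1, NT and EZH2 for dCas13d-ADAR, and MALAT1 only for DECOR. REPAIRv2 joins a catalytically inactive Cas13 to a deaminase domain taken from human ADAR. For the others, and for the guides, the labels give a name only, and they do not say which editor carries the evolved bacterial deaminase of the series title. NT and A22 are not spelled out in the labels. No library without an editor was used here, so other sources of an A-to-G difference are not separated from editing by the editor. The DECOR libraries were read for 62 and 160 cycles and all others for 25 and 97, so what sets DECOR apart, whether editor, guide or read length, cannot be told apart. Whether the libraries of a group are separate cultures is not stated in the labels, and the spread behind each p-value is only that between libraries and may be technical. The question of the series is a comparison of RNA editing among base editors.

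Each list gives a site's chromosome, position and A-to-G rate, a fraction from 0 to 1 that is called its level here. REPAIRv2 listed 46 to 101 sites per library, REPAIR.t1 4356 to 4784, dCas13d-ADAR 5730 to 5834 and DECOR 5516 to 5855. The libraries were made with a strand-keeping kit, but the lists hold no strand and no coverage, so the depth is unknown and no counting error can be given. Absence from a list therefore does not show that an adenosine was unedited. The actin genes, and likewise the tubulin genes, have closely similar coding sequences, and how reads matching several copies were placed is not given in the sources used here, so the gene of such a site is uncertain. In the RefSeq table of GRCh38.p14, VIM overlaps the antisense gene VIM-AS1 and TUBB4B overlaps CIMIP2A, and without strand their reads cannot be told apart.

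The 7 transcripts carried sites of REPAIR.t1, dCas13d-ADAR and DECOR. The 4 REPAIRv2 libraries listed 0 of the 82, where 0.783% of all sites were in a REPAIRv2 list. With only 46 to 101 sites per REPAIRv2 list, this 0 does not set the 7 genes apart from the rest. The REPAIR.t1 libraries listed 16 and 17 sites with the NT guide and 14 and 13 with the EZH2_A22 guide. The dCas13d-ADAR libraries listed 15 and 18 with the NT guide and 26 and 25 with the EZH2 guide, and the DECOR libraries 26 and 25. The mean was 15.0 ± 1.83 (SD, n = 4) in REPAIR.t1, 21.0 ± 5.35 (n = 4) in dCas13d-ADAR and 25.5 ± 0.707 (n = 2) in DECOR. With the NT guide the libraries of REPAIR.t1 and dCas13d-ADAR overlapped, and with the EZH2 guides both of dCas13d-ADAR were higher. Within REPAIR.t1 both EZH2_A22 libraries lay below both NT libraries, and within dCas13d-ADAR both EZH2 libraries lay above. At levels of at least 0.2 the dCas13d-ADAR libraries of both guides overlapped, at 9 and 10 sites (NT) and 12 and 10 (EZH2). With 2 libraries a group the guide differences in site number were not tested. As a share of its list the 7 genes made up 0.272% to 0.390% in REPAIR.t1 libraries, 0.262% to 0.446% in dCas13d-ADAR libraries, and 0.471% and 0.427% in DECOR libraries. The shares of REPAIR.t1 and dCas13d-ADAR overlapped.

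VIM had the most sites, and TUBB had 7 of its 9 in DECOR. By distinct sites over all libraries the order was VIM with 27, ACTG1 with 16, ACTB with 10, TUBB with 9, TUBA1A with 8, and TUBA1B and TUBB4B with 6 each. Per kilobase of span, introns included, the order changed: ACTG1 had 5.52 distinct sites, ACTB 2.90, VIM 2.89, TUBB4B 2.40, TUBA1A 1.77, TUBB 1.72 and TUBA1B 1.60. Neighbours in this order from ACTB downward differed little, and single genes varied between libraries of an editor by as much as 6 sites to 1.

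**Figure D1:**
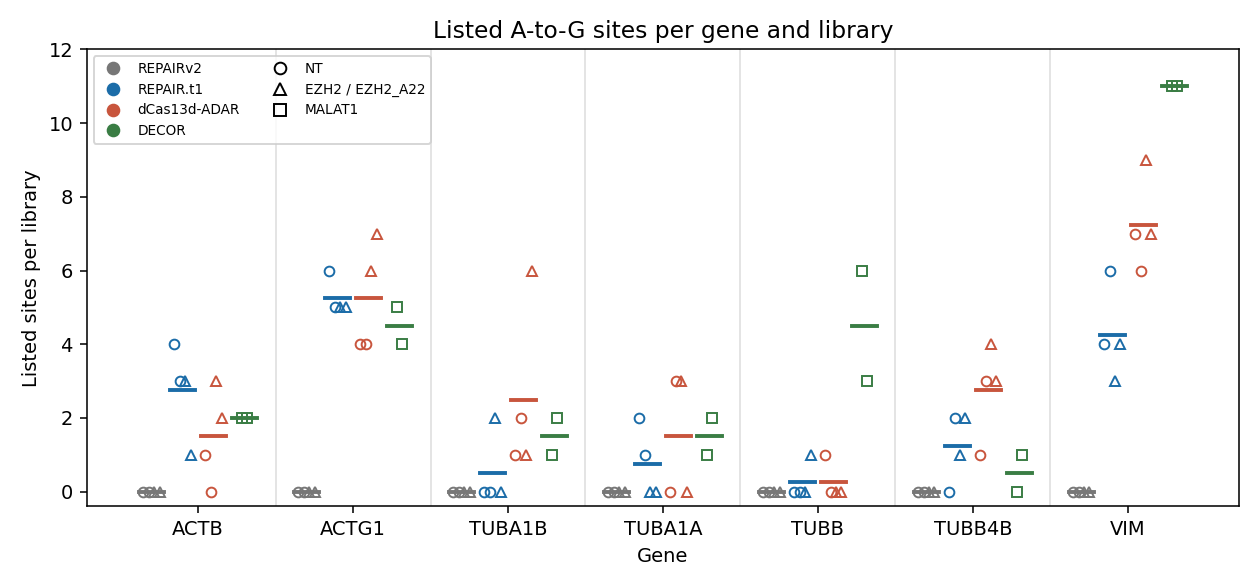
Number of listed A-to-G sites (vertical axis) in each of the 7 genes (horizontal axis), with 1 symbol per library, coloured by editor and shaped by guide; horizontal bars are means over the libraries of an editor. All REPAIRv2 libraries sit at 0, and the DECOR libraries lie above all others in VIM, at 11 each, and in TUBB, at 6 and 3.

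In no gene were the site numbers of the 4 dCas13d-ADAR libraries all above, or all below, those of the 4 REPAIR.t1 libraries. Over 1683 bins of 5 kb along the genome with at least 1 site per library on average, 8.14% had all dCas13d-ADAR libraries above and 2.32% all REPAIR.t1 libraries above. The DECOR libraries lay above all 8 libraries of both other editors in 2 of the 7 genes, TUBB and VIM, against 10.6% of 1569 such bins. At levels of at least 0.2 neither gene showed this, and the share of bins was not computed at that level. The gene spans, from 2.495 kb (TUBB4B) to 9.335 kb (VIM), are not all near 5 kb and faced no minimum of sites. TUBB had 0.25 sites per library on average in REPAIR.t1 and the same in dCas13d-ADAR. The bins are therefore only a rough background for the genes. No p-value was computed for site numbers.

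The actins were edited at a small set of recurrent positions in ACTG1, the gene of gamma-actin, and less repeatably in ACTB, the gene of beta-actin. Per library ACTG1 had 6, 5, 5 and 5 sites in REPAIR.t1, 4, 4, 6 and 7 in dCas13d-ADAR and 5 and 4 in DECOR. Of its 8 REPAIR.t1 sites 4 were in all 4 libraries, of its 9 dCas13d-ADAR sites 3 were, and of its 5 DECOR sites 4 were in both. The same adenosines recurred in REPAIR.t1 and dCas13d-ADAR, and none of the 5 DECOR sites was listed by another editor.

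The 3 ACTG1 sites listed in all 8 libraries of REPAIR.t1 and dCas13d-ADAR had moderate levels. Position 79479328 read 0.156 and 0.206 (NT) and 0.273 and 0.145 (EZH2_A22) in REPAIR.t1, and 0.205 and 0.311 (NT) and 0.237 and 0.250 (EZH2) in dCas13d-ADAR. Position 79477599 read 0.129, 0.229, 0.191 and 0.250 in REPAIR.t1 in the same order and 0.167, 0.229, 0.289 and 0.250 in dCas13d-ADAR. Position 79478064 read 0.167, 0.133, 0.196 and 0.133 in REPAIR.t1 and 0.2, 0.203, 0.143 and 0.143 in dCas13d-ADAR. At each of the 3 sites the libraries of both editors overlapped. Position 79478972 was in all REPAIR.t1 libraries (0.161 ± 0.0258, SD, n = 4) and in 3 of dCas13d-ADAR (0.127, 0.132 and 0.204). Position 79477491 was listed with the EZH2 guide of dCas13d-ADAR alone, at 0.205 and 0.244.

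ACTB had 4, 3, 3 and 1 sites per library in REPAIR.t1, 1, 0, 3 and 2 in dCas13d-ADAR and 2 and 2 in DECOR. No ACTB site was in all 4 libraries of an editor. In 3 REPAIR.t1 libraries and no dCas13d-ADAR library were position 5567431 at 0.167, 0.229 and 0.127, and position 5569237 at 0.111, 0.140 and 0.130. The base beside the first, position 5567432, was in 2 libraries of each editor, at 0.117 and 0.143 in REPAIR.t1 and 0.117 and 0.118 in dCas13d-ADAR. In DECOR, position 5568881 was in both libraries at 0.121 and 0.130, and no other editor listed it.

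The alpha-tubulins had few listed sites in most libraries, as did TUBB outside DECOR. TUBA1B, the widely expressed alpha-tubulin of dividing cells, had 0, 0, 2 and 0 sites in the REPAIR.t1 libraries, 1, 2, 1 and 6 in the dCas13d-ADAR libraries and 1 and 2 in the DECOR libraries. The library with 6 was dCas13d-ADAR EZH2 replicate 2. Its most recurrent site, position 49522664, read 0.196 (NT) and 0.250 and 0.195 (EZH2) in dCas13d-ADAR and 0.128 in 1 REPAIR.t1 library. Both DECOR positions of TUBA1B, 49523152 and 49523305, were also in dCas13d-ADAR EZH2 replicate 2. Position 49523305 was at 0.1 and 0.0972 in DECOR and at 0.103 in dCas13d-ADAR.

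TUBA1A, the alpha-tubulin best known from neurons, held the highest single readings among the 7 genes, at sites listed in few libraries. It had 2, 1, 0 and 0 sites in REPAIR.t1, 0, 3, 3 and 0 in dCas13d-ADAR and 1 and 2 in DECOR. Position 49578739 read 0.2 and 0.429 with the NT guide of REPAIR.t1 and 0.300 in 1 dCas13d-ADAR library. Position 49579716 read 0.250 and 0.417 in 2 dCas13d-ADAR libraries. These levels spread more than those at the recurrent ACTG1 sites, and no TUBA1A site was in all libraries of an editor. The coverage of TUBA1A is unknown, so the part of low read numbers in these levels and their spread was not tested.

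Most TUBB sites were listed by DECOR and most TUBB4B sites by dCas13d-ADAR. TUBB, the main beta-tubulin of dividing cells, had 6 and 3 sites in the DECOR libraries and at most 1 in any other library. Its 7 DECOR sites were listed by no other editor. The 2 in both DECOR libraries were position 30692974, at 0.159 and 0.133, and position 30691950, at 0.102 and 0.0851, the lowest level in the 7 genes.

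TUBB4B, a beta-tubulin also used in cilia, had 0, 2, 1 and 2 sites in REPAIR.t1, 1, 3, 4 and 3 in dCas13d-ADAR and 0 and 1 in DECOR. Position 140137218 was in all 4 dCas13d-ADAR libraries, at 0.289 and 0.196 (NT) and 0.195 and 0.125 (EZH2), and in no REPAIR.t1 library. Position 140137622 read 0.174, 0.111 and 0.133 in 3 REPAIR.t1 libraries and 0.190 and 0.276 in 2 dCas13d-ADAR libraries. Here the dCas13d-ADAR levels lay above those of REPAIR.t1, which was not tested because the site is missing from 3 of the 8 lists.

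Vimentin, with the longest span, had the largest set of recurrent sites in dCas13d-ADAR and in DECOR. In REPAIR.t1 that set was in ACTG1, with 4 sites against 1 in VIM. VIM had 4, 6, 3 and 4 sites per library in REPAIR.t1, 7, 6, 9 and 7 in dCas13d-ADAR and 11 and 11 in DECOR. REPAIR.t1 NT replicate 2 met the lowest dCas13d-ADAR library at 6 sites, so these editors overlapped. Of 11 dCas13d-ADAR sites 5 were in all 4 libraries, of 9 REPAIR.t1 sites 1 was, and of 13 DECOR sites 9 were in both.

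Position 17275609 was the VIM site in all 8 libraries of REPAIR.t1 and dCas13d-ADAR. It read 0.289 and 0.184 (NT) and 0.186 and 0.242 (EZH2_A22) in REPAIR.t1, and 0.224 and 0.2 (NT) and 0.265 and 0.244 (EZH2) in dCas13d-ADAR, and the editors overlapped. Position 17275629, 20 bases away, was in 3 REPAIR.t1 libraries at 0.238, 0.227 and 0.195 and in no dCas13d-ADAR library.

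Near the 5′ end of VIM, dCas13d-ADAR had 3 sites in all of its libraries. Position 17271534 read 0.267 and 0.355 (NT) and 0.342 and 0.375 (EZH2) there, against 0.188 and 0.174 in 2 REPAIR.t1 libraries. All 4 values of dCas13d-ADAR were above both of REPAIR.t1. Position 17271726 read 0.207, 0.2, 0.280 and 0.273 in dCas13d-ADAR, and position 17271768 read 0.129, 0.258, 0.286 and 0.161. No REPAIR.t1 library listed either of them. The fifth, position 17277358, read 0.125, 0.184, 0.265 and 0.220 in dCas13d-ADAR and 0.204 and 0.158 in 2 REPAIR.t1 libraries.

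The DECOR sites of VIM were at other adenosines. The highest, position 17272673, read 0.258 and 0.344 in DECOR and was also in 1 dCas13d-ADAR library at 0.162. Of the 13 DECOR sites 12 were in no other editor's list. Those in both libraries after it were position 17276765 (0.257 and 0.2), position 17275875 (0.211 and 0.227), position 17277307 (0.250 and 0.184), position 17271479 (0.186 and 0.222), position 17278298 (0.233 and 0.143), position 17277273 (0.167 and 0.164), position 17275922 (0.143 and 0.184) and position 17277189 (0.188 and 0.128). The pair of libraries differed by no more than 0.0905 at these 9 sites.

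**Figure D2:**
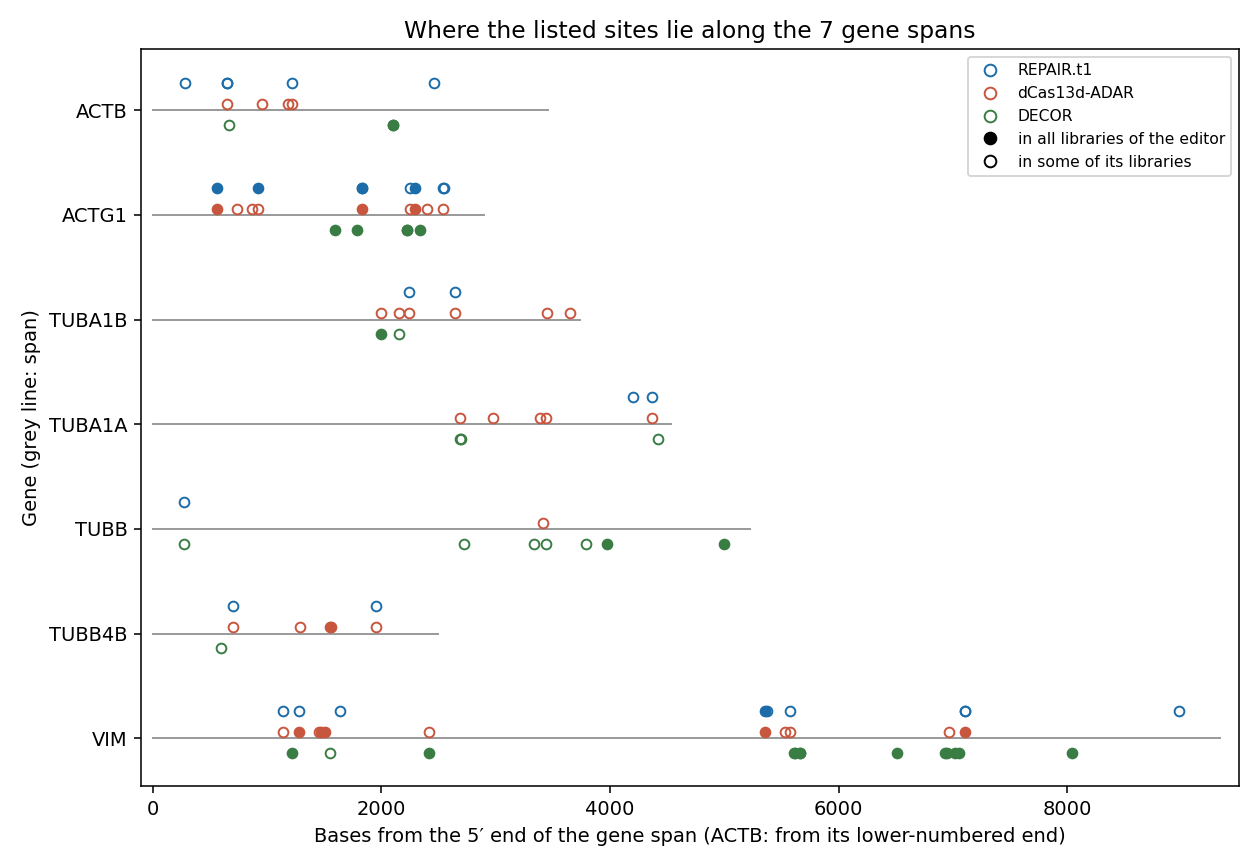
Listed sites along the 7 gene spans, in bases from the 5′ end (for ACTB, from the lower-numbered end), on a common scale; grey lines are the spans and each circle is a site of REPAIR.t1, dCas13d-ADAR or DECOR, filled where all libraries of that editor list it, with the closest sites overlapping. VIM sites fall in 9 positions before and 18 after a stretch of 2936 bases with none, and TUBA1A sites all lie at least 2691 bases from the 5′ end.

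The sites were unevenly placed along the genes. For the 6 genes whose strand is in the RefSeq table of GRCh38.p14, all but ACTB, the span was cut into 4 equal stretches from the 5′ end, which held 12, 5, 32 and 23 of the 72 sites in that order. VIM had no site over 2936 bases between positions 17272673 and 17275609, and TUBB none over 2448 bases between positions 30688256 and 30690704. Exons, introns and untranslated regions of hg19 were not analysed here.

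With sites pooled over the libraries of an editor, some came in close pairs in these 7 genes. Those of DECOR were 2 bases apart and those of REPAIR.t1 at adjacent bases. No DECOR pair was listed whole in both libraries. The closest dCas13d-ADAR sites, 140137218 and 140137221 in TUBB4B, were 3 bases apart (2.94% of its pairs, against 1.02% in its whole list). The DECOR pairs were 5568881 and 5568883 in ACTB, 79477667 and 79477669 in ACTG1, 49580414 and 49580416 in TUBA1A, and 17275920 and 17275922 in VIM. These were 4 of 27 neighbouring pairs, or 14.8%, where 2.97% of 9280 neighbouring pairs in the whole DECOR list were 2 bases apart. The REPAIR.t1 pairs were 5567431 and 5567432 in ACTB, and 79477348 with 79477349 and 79478064 with 79478065 in ACTG1, which made 3 of 22 neighbouring pairs (13.6%) against 1.75% in its whole list. Pairs in the 7 genes were taken within a gene, and those of whole lists along whole chromosomes, gaps between genes included. The shares therefore have unlike denominators, and these small counts were not tested.

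The shares of sites that recurred within an editor were larger in the 7 genes than over whole lists, a description that was not tested. In all 4 libraries of REPAIR.t1 were 5 of 29 sites (17.2%), against 9.89% of all its sites. For dCas13d-ADAR it was 9 of 41 against 13.5%, and in both DECOR libraries 17 of 34 (50%) against 22.2%. Single listings were the other side of this: 12 of 29 REPAIR.t1 sites were in 1 library only (57.3% over all its sites), 20 of 41 of dCas13d-ADAR (52.5%) and 17 of 34 of DECOR (77.8%). Counting each list of every editor, 36 of the 82 sites were listed once (58.3% over all sites). REPAIR.t1 and dCas13d-ADAR shared 18 sites, 62.1% of the REPAIR.t1 sites and 43.9% of the dCas13d-ADAR sites. Over whole lists these shares were 54.5% and 47%.

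DECOR shared few sites with the other editors. Of its 34 sites 4 were in another editor's list (11.8%, against 3.75% of all DECOR sites), and each of the 4 was in dCas13d-ADAR alone. Of the 17 in both DECOR libraries it was 2, against 4.6% of all such sites. Within 50 bases of a site of another editor lay 18 of the 34 (52.9%, against 32.3% of all DECOR sites). No site in the 7 genes was listed by REPAIR.t1, dCas13d-ADAR and DECOR together, and 30 of the 82 sites were in DECOR alone. No site of the 7 genes was in all 6 libraries of DECOR and either other editor, so levels could not be tested between them.

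Some sites were listed by only REPAIR.t1 or only dCas13d-ADAR among these editors. In all 4 dCas13d-ADAR libraries and no REPAIR.t1 library were 3 of 52 sites (1.04% over all sites of these editors), the TUBB4B site 140137218 and the VIM sites 17271726 and 17271768. In all 4 REPAIR.t1 libraries and no dCas13d-ADAR library were 0 of 52 (0.459% over all sites). In at least 3 libraries of an editor and none of the other, the numbers were 3 for dCas13d-ADAR (3.77% over all sites) and 3 for REPAIR.t1 (1.94% over all sites), the latter being both ACTB sites above and the VIM site 17275629.

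Levels in the 7 genes were low beside the rest of each list. The median level of a library's sites in these genes was 0.155 ± 0.0152 in REPAIR.t1 (SD, n = 4), 0.190 ± 0.0115 in dCas13d-ADAR (n = 4) and 0.158 ± 0.00888 in DECOR (n = 2). The medians of the whole lists were 0.256 ± 0.00700, 0.266 ± 0.00249 and 0.209 ± 0.00155. In each of the 10 libraries the median in the 7 genes was the lower one. All dCas13d-ADAR medians (0.178 to 0.2) lay above all REPAIR.t1 medians (0.141 to 0.174), over different sets of sites.

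Of the listings, 3 of 60 in REPAIR.t1, 13 of 84 in dCas13d-ADAR and 11 of 51 in DECOR were above the median of their own list. Levels of at least 0.2 made up 24.1% ± 10.8 of the sites in the 7 genes in REPAIR.t1, 50.4% ± 9.04 in dCas13d-ADAR and 29.3% ± 7.51 in DECOR. In the whole lists they made up 73.8% ± 1.68, 75.7% ± 0.731 and 56.2% ± 0.654. No site in these genes reached 0.5 in any library. Of the whole lists, 4.27% to 5.08% of sites did so in REPAIR.t1 and 6.36% to 7.77% in dCas13d-ADAR. In DECOR only 1.70% and 1.67% did. The coverage of these transcripts is unknown, and its part in the low levels was not tested.

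**Figure D3:**
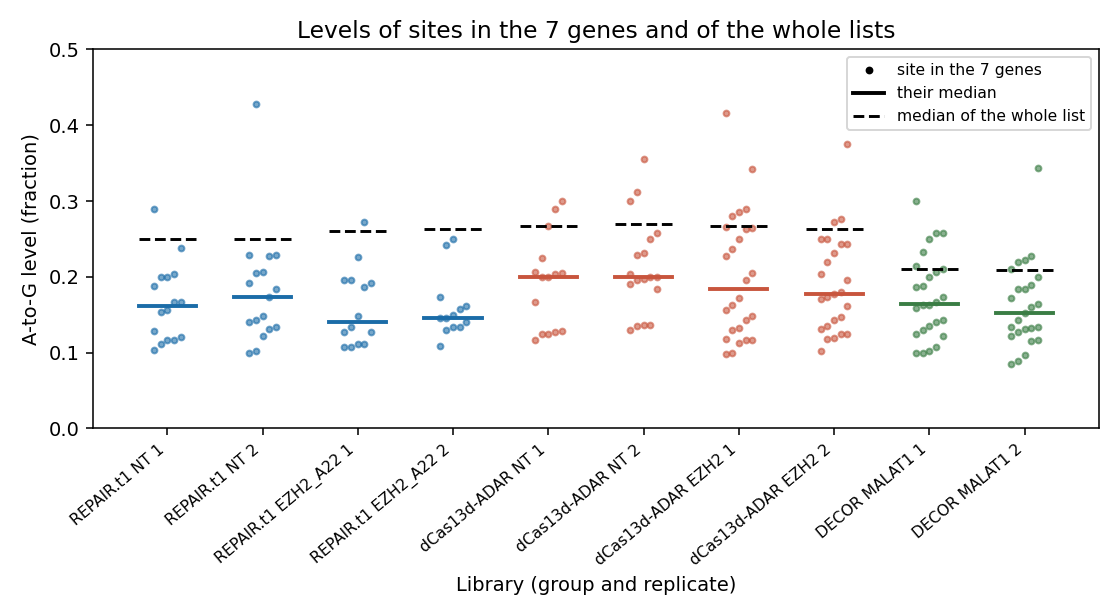
Level of each listed site in the 7 genes (points, fraction from 0 to 1) by library, with the median of these sites (solid bar) and the median of the library's whole list (dashed bar). The solid bars, at 0.141 to 0.2, lie below the dashed bars, at 0.208 to 0.269, in all 10 libraries that list such sites.

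At the same adenosines dCas13d-ADAR and REPAIR.t1 did not differ detectably in level. Of 609 sites listed in all 8 libraries, 4 lie in the 7 genes, out of 52 there in any of the 8 (3.54% over all sites). In limma, run on the log2 odds of the level with the guide as a covariate, none of these 4 passed an adjusted p of 0.05 or an unadjusted p of 0.05, where 7.22% of the 609 passed the first and 25.9% the second. The difference of dCas13d-ADAR minus REPAIR.t1 was above 0 at 4 of 4 sites and at 74.2% of the 609, but fell below 0 at VIM 17275609 without any of 3 libraries or with the NT guide alone, and at ACTG1 79478064 with the EZH2 guides alone. At ACTG1 79479328 it was 0.48 log2 units of odds (SE 0.36, 95% interval -0.25 to 1.20, limma adjusted p = 0.424). At ACTG1 79477599 it was 0.29 (95% interval -0.43 to 1.01, limma adjusted p = 0.667). At ACTG1 79478064 it was 0.15 (95% interval -0.56 to 0.86), and at VIM 17275609 it was 0.08 (95% interval -0.63 to 0.79). These intervals leave room for differences of over 0.7 log2 units upward.

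The mean level over these 4 sites was 0.194 ± 0.0118 in REPAIR.t1 (SD, n = 4; 0.185 to 0.211) and 0.223 ± 0.0168 in dCas13d-ADAR (n = 4; 0.199 to 0.236). The libraries overlapped. Over all 609 sites the means were 0.320 ± 0.00971 and 0.370 ± 0.00537. Among the 18 sites of the 7 genes listed by both editors in any library, 11 had the higher mean in dCas13d-ADAR and 7 in REPAIR.t1, with a median difference of 0.0164. The largest was at VIM 17271534, at 0.335 against 0.181, and the most negative at ACTG1 79477640, where 1 library of each read 0.113 and 0.191.

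**Figure D4:**
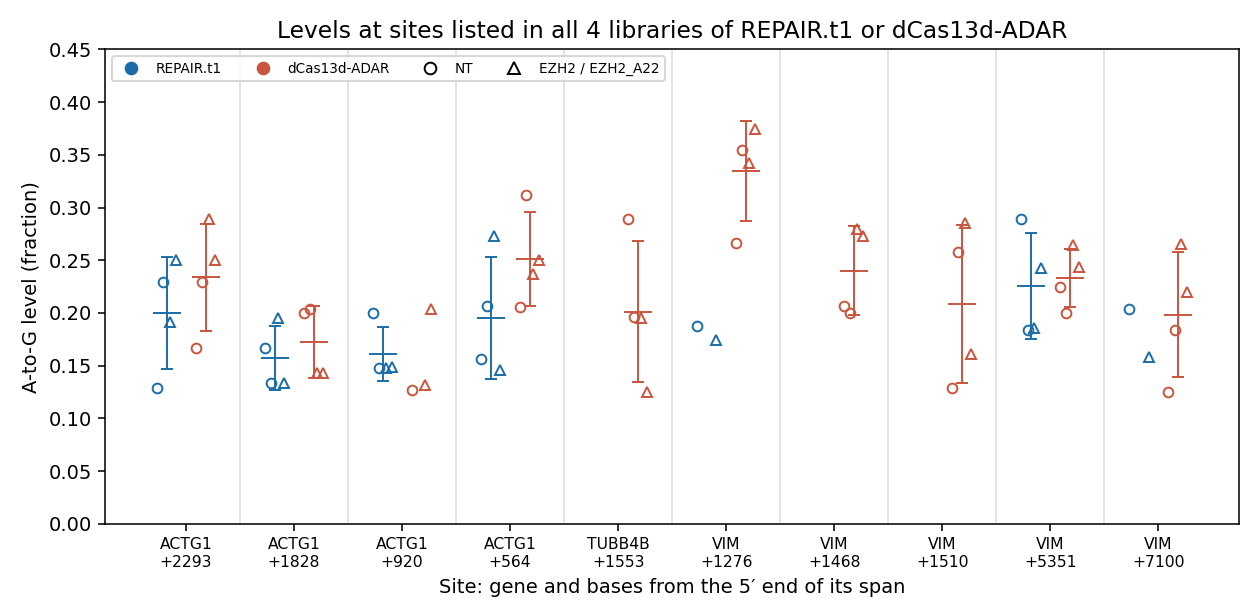
Levels (fraction) at the 10 sites listed in all 4 libraries of REPAIR.t1 or of dCas13d-ADAR, named by gene and bases from the 5′ end of its span; circles are NT and triangles EZH2 or EZH2_A22 libraries, and bars are mean ± SD where all 4 libraries of an editor list the site. The highest mean, 0.335, is at the VIM site 1276 bases from the 5′ end in dCas13d-ADAR, and at the 4 sites with bars for both editors the points overlap.

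The EZH2 guides did not detectably change levels at the sites of these genes that could be tested. Tested by limma were 5 sites in all 4 lists of REPAIR.t1 and 9 in all 4 of dCas13d-ADAR. Adjusted or not, 0 of them had a p under 0.05. Over all sites tested, 0% passed the adjusted threshold for either editor, and 5.79% of 1053 and 5.23% of 1665 the unadjusted one. In dCas13d-ADAR the largest rise was at VIM 17277358, from 0.125 and 0.184 to 0.265 and 0.220, with a log2 odds difference of 0.79 (SE 0.49, 95% interval -0.22 to 1.81, limma adjusted p = 0.934). The largest fall was at TUBB4B 140137218, at -0.73 (SE 0.50, 95% interval -1.77 to 0.31, limma adjusted p = 0.939). In REPAIR.t1 the differences ran from -0.25 at ACTG1 79478972 to 0.40 at ACTG1 79477599, and at each of the 5 sites the sign turned when some single library was left out. The guide effect of dCas13d-ADAR minus that of REPAIR.t1 passed at 0 of the 4 sites common to all 8 libraries, with adjusted p-values of 0.970 to 0.981 in limma (0 at an unadjusted 0.05, and 6.73% of all 609). Median levels over each library's own sites in the 7 genes were lower with the EZH2 guides in both editors. They were 0.141 and 0.145 against 0.161 and 0.174 (NT) in REPAIR.t1. For dCas13d-ADAR they were 0.183 and 0.178 against 0.2 and 0.2 (NT). These medians cover different sets of sites, and their difference was not tested.

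Sites listed with 1 guide and not the other were about as frequent in the 7 genes as over all sites. In both EZH2 libraries and no NT library were 1 of 29 sites of REPAIR.t1, VIM 17271398 (3.81% over all its sites), and 2 of 41 of dCas13d-ADAR, ACTB 5568001 and ACTG1 79477491 (3.51% over all its sites). In both NT libraries and no EZH2 library were 2 of 29 sites of REPAIR.t1, ACTB 5567432 and TUBA1A 49578739 (3.17% over all its sites), and 1 of 41 of dCas13d-ADAR, again VIM 17271398 (3.52% over all its sites). That site was at 0.133 and 0.161 with the EZH2_A22 guide of REPAIR.t1 and at 0.300 and 0.136 with the NT guide of dCas13d-ADAR.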

How the data were processed

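The deposited lists give each site's A-to-G rate as a fraction, per the file headers. The submitters' processing notes name cutadapt, STAR 2.6.1b and hg19. Not given in the sources used here: the site caller, its thresholds on coverage and level, and how known variants and multiply matching reads were treated. Sites were assigned to the 7 genes by position within fixed hg19 spans. No hg19 genome or annotation was used. Gene identifiers, strands and overlapping genes came from the RefSeq table of GRCh38.p14.

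Site numbers, shares of a list, recurrence and median levels were described per library, with no test. Levels were tested with limma 3.58.1 (R 4.3.3) on log2 odds, each level and 1 minus the level being raised by 0.01. The table held every site listed in all libraries compared, and p-values were adjusted over it by Benjamini-Hochberg at a threshold of 0.05. Intervals are at 95%. The procedure was checked on simulated data. Tables were made with Python 3.11.15 and pandas 2.3.3. Coverage is unknown, so no counting error enters any value.

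The rule for named sites took those in all 8 libraries of REPAIR.t1 and dCas13d-ADAR (at most 3 per gene), those in all 4 of either and none of the other, and the 10 highest of those in both DECOR libraries. Other sites were named after their values were seen. The genes, lists and rules were chosen with earlier results of these data known. Alternatives were other offsets, scales and level minimums, a site required in both libraries of a group, sites missing from 1 library, the replicate number as a block and leaving out each library.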

Additional observations from a re-analysis of the deposited data

Results flagged for a closer look

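The site number in the 7 genes went opposite ways with the guide in REPAIR.t1 and dCas13d-ADAR, each run with the NT guide and an EZH2 guide. REPAIRv2 had such guides too, and 0 sites in the 7 genes. The EZH2 mean minus the NT mean was -3 sites in REPAIR.t1 (14 and 13 against 16 and 17) and 9 sites in dCas13d-ADAR (26 and 25 against 15 and 18). As a share of each list the differences were -0.0832 percentage points in REPAIR.t1 and 0.152 in dCas13d-ADAR. In each editor the libraries of the 2 guides did not overlap. At levels of at least 0.2 those of dCas13d-ADAR did overlap, at 9 and 10 sites (NT) and 12 and 10 (EZH2). Those of REPAIR.t1 still did not, at 5 and 6 (NT) and 2 and 2 (EZH2_A22). The difference between the editors was not tested, and how often other genes move in this way was not computed. Site number and share were the only 2 of 14 measures compared whose libraries moved in opposite directions. The share is the site number over the length of the list, so these 2 are not separate observations.

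A library stood apart from the other 3 of its editor in 5 of 34 sets of 4 values by a gap over Dixon's critical value at 95%. Chance gives that in about 5% of sets of continuous values, a rate that does not apply to 4 of the 5, which are small counts with 3 libraries tied. ACTG1 had 6 sites in REPAIR.t1 NT replicate 1 and 5 in each of the others. TUBA1B had 2 sites in REPAIR.t1 EZH2_A22 replicate 1 and 0 in the others. TUBB had 1 site in REPAIR.t1 EZH2_A22 replicate 2 and 1 in dCas13d-ADAR NT replicate 1, and 0 in the others of each editor. The level at ACTG1 79478972 was 0.2 in REPAIR.t1 NT replicate 1 and 0.148, 0.148 and 0.149 in the others.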

How the results depend on the processing

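Of 612 values under alternatives, 516 were counted as unchanged, 80 moved and 16 changed sign, and none crossed a test's threshold. Among these were 201 level differences at single sites, where unchanged (185) meant the same sign and the same side of the threshold. Their size was not judged and could shift. Between dCas13d-ADAR and REPAIR.t1, ACTG1 79478064 fell from 0.15 to 0.0058 without REPAIR.t1 NT replicate 2. The 16 are level differences at single sites, none of which had an adjusted p under 0.05 in limma in any setting. Kept to levels of at least 0.2, the 7 genes had 3.75 sites per library in REPAIR.t1, 10.3 in dCas13d-ADAR and 7.50 in DECOR, shares of 0.112%, 0.234% and 0.236%, medians of 0.232, 0.240 and 0.227, and 0, 4 and 4 sites in all libraries. The median spacing was then 401 bases in dCas13d-ADAR and 890 in DECOR, dCas13d-ADAR lay above REPAIR.t1 in 1 gene (VIM) and DECOR above the others in 0, and no site was left in all 8 libraries. Kept to sites in both libraries of a group, REPAIR.t1 had 8.50 sites (0.415% of its list, median 0.174), dCas13d-ADAR 12.5 (median 0.216, spacing 356 bases) and DECOR 0.822% of its list (spacing 433 bases), and dCas13d-ADAR lay above REPAIR.t1 in 1 gene, again VIM. No share of 5-kb bins was computed for either setting, so these gene counts have no background beside them.

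Without 1 library at a time, the sites private to REPAIR.t1 ran from 0 to 2, the genes with dCas13d-ADAR above from 0 to 1 (VIM without REPAIR.t1 NT replicate 2 or dCas13d-ADAR NT replicate 2, TUBA1B without REPAIR.t1 EZH2_A22 replicate 1, TUBB4B without dCas13d-ADAR NT replicate 1, with no share of 5-kb bins computed for these settings), the spacing from 179.5 to 283 bases in dCas13d-ADAR and 258 to 386 in DECOR, and the DECOR sites in every library left from 25 to 26. Of all sites compared between dCas13d-ADAR and REPAIR.t1, limma called 10 to 42 (10 without dCas13d-ADAR NT replicate 1, 19 without REPAIR.t1 NT replicate 2, 18 without REPAIR.t1 EZH2_A22 replicate 2), 2 with the NT guide only and 0 with the EZH2 guides only (114 at an unadjusted p of 0.05), against 44. The cause was not tested, beyond the fewer libraries in each fit. In the 7 genes it called 0 throughout.

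Differences in log2 odds that changed sign did so as follows. Between dCas13d-ADAR and REPAIR.t1, VIM 17275609 ran from -0.0632 to 0.29 without 1 library at a time and was -0.16 with the NT guide only, and ACTG1 79478064 was -0.21 with the EZH2 guides only. Between the guides of REPAIR.t1, without 1 library at a time, ACTG1 79477599 ran from -0.0779 to 0.88, 79478064 from -0.18 to 0.45, 79478972 from -0.49 to 0.0042 and 79479328 from -0.35 to 0.74, and VIM 17275609 from -0.57 to 0.26. Between those of dCas13d-ADAR, ACTG1 79479328 ran from -0.48 to 0.30 and VIM 17271768 from -0.31 to 0.86.

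Replicate numbers did not pair the libraries of REPAIR.t1 and dCas13d-ADAR, whose deviations correlated at -0.00668 to 0.0486 over 6 pairs of groups. For the 4 pairs with DECOR the correlations ran from -0.213 to 0.0648, over only 27 to 38 sites each. With the replicate number as a block, limma called 44 sites between the editors and 0 for each guide comparison, and 0 in the 7 genes. Depth is unknown, so a missing site cannot be told from a thinly covered one.

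With 1 guide at a time, an alternative chosen after seeing the data, REPAIR.t1 and dCas13d-ADAR each had 16.5 sites in the 7 genes with the NT guide, and 13.5 and 25.5 with the EZH2 guides.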
